A study of Mus musculus with 50 samples.

Results

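The Myc, Max and Mxd network is a group of transcription factors, and its genes were followed here through a transcription block in mouse embryonic stem cells with and without the Ythdf proteins. The 10 genes Myc, Mycn, Mycl, Max, Mxd3, Mxd4, Mxi1, Mnt, Mga and Mlx were taken by symbol from the 19455 genes of the deposited table, and all 10 had rows. RNA was sequenced from its 3′ poly(A) ends in the KH2 line, which has a C57BL/6 x 129/Sv background, grown in serum with LIF. The knockout groups were Triple_KO, which lacks Ythdf1, Ythdf2 and Ythdf3 together, and Ythdf1_KO, Ythdf2_KO and Ythdf3_KO, which lack 1 gene each (written Ythdf1-/-, Ythdf2-/- and Ythdf3-/- in the labels). WT cells of the same line were the control. All 5 genotypes received 5 µM actinomycin D, a blocker of transcription, 48 h after plating on gelatin, and cells were taken at 0, 4 and 8 h. Replicates A and B of every genotype gave duplicate libraries at 0 and 8 h and 1 library each at 4 h, for 50 libraries in all. Whether A and B come from separate cultures is not in the labels, nor is the number of clones behind a genotype, so the p-values measure the spread between these samples, which may be technical, and a genotype cannot be told apart from a clone.

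Ythdf1, Ythdf2 and Ythdf3 are cytoplasmic readers of m6A (N6-methyladenosine), a methylated adenosine found inside mRNAs, and Ythdf proteins are known for promoting the decay of methylated mRNAs. In the network, Myc, Mycn and Mycl are activators that bind DNA only as a pair with Max, while Mxd3, Mxd4, Mxi1, Mnt and Mga pair with the same Max and mostly repress. Mlx is a Max-like protein that pairs with the nutrient-sensing Mondo factors and also with some Mxd proteins and Mnt. These pairs read the E-box CACGTG. In embryonic stem cells Myc and Mycn are known for driving growth and self-renewal, and Mga with Max is part of PRC1.6, a Polycomb complex that holds germline genes silent.

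The E-box itself stood in the promoters of several network genes. In RefSeq promoter windows of build GRCm38.p6, from 250 bases before to 50 bases after the start, CACGTG, which reads the same on both strands, was present for 4 of the 9 members with a window, against 8.093% of 27025 genes and 7.15% of all 32851 promoters. The letters alone do not show that any factor was bound. The 4 windows of 30 bases are shown because they carry the network's own binding sequence, in capitals, at genes of the network. Max (chr12:76962234-76962263, minus strand) held it 3 bases before its start, Mlx (chr11:101087238-101087267, plus strand) 40 bases before, Mnt (chr11:74830789-74830818, plus strand) 123 bases before, and Mxd4 (chr5:34187912-34187941, minus strand) 219 bases before.
Max: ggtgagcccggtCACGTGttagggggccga
Mlx: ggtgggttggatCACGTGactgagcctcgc
Mnt: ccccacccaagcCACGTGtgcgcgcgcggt
Mxd4: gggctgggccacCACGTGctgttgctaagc

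The transcripts were also searched, on their own strand, for GGACT, the core letters in which m6A is most often found. In the GENCODE M21 transcripts used (GRCm38), Mycn and Max each held 2, Mlx and Mxi1 1 each, Mxd3 3, Mycl, Mxd4 and Mnt 5 each, Myc 6 and Mga 8. Of 6855 genes with a mean of at least 5 FPM, 90.2% held it, with a median of 3. For those genes the transcript with the longest 3′ UTR was taken, and for members a transcript matched to the counted row. The background may therefore be raised beside the members. Per 1000 bases Myc held 2.57 copies and Mycn 0.748, beside a median of 1.05 over those genes. Whether any copy was methylated was not measured. The windows below, GGACT in capitals, are the copies in Mycn and Max, the members on which the results turn, and the Myc copy that matches one of them. The Mycn coding copy (chr12:12940035-12940064, minus strand) and the Myc coding copy (chr15:61987905-61987934, plus strand) lie in the stretch that codes for Myc box II, a conserved region of Myc proteins, and 25 of the 30 bases are identical. The second Mycn copy is coding too (chr12:12936999-12937028, minus strand), and of the Max copies 1 is coding (chr12:76953182-76953211, minus strand) and 1 lies in the 3′ UTR (chr12:76938146-76938175, minus strand).
Mycn, Myc box II: ggtcatccttcaGGACTgcatgtggagcgg
Myc, Myc box II: catcatcatccaGGACTgtatgtggagcgg
Mycn, second coding copy: tcgaacacgctcGGACTtgctaaacgtttc
Max, coding: tcacagtttgcgGGACTcagtcccatcact
Max, 3′ UTR: cctctgtttggtGGACTttgtgactctgaa

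ATTTA, the core of AU-rich elements that speed up decay in many short-lived mRNAs, was searched in the 3′ UTRs. Of the same 6855 genes, each by its longest 3′ UTR, 65.4% held it. Mycn and Max held 1 copy each, Myc, Mycl and Mlx 2 each, Mnt 1, Mxi1 and Mga 5 each, and Mxd3 and Mxd4 none. The longer ATTTATTTA, which overlaps it, was present in 5.21% of those genes and in none of the 10. The single copies of the same 2 genes are shown, for Mycn at chr12:12936148-12936177 and for Max at chr12:76937763-76937792, both on the minus strand.
Mycn, 3′ UTR: caaaatgtatatATTTAgtgctgcacctta
Max, 3′ UTR: tgatgttttgatATTTAtttcctgctactg

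Reads on the network genes were few for some members. Values are FPM, reads scaled to a fixed library size with no correction for transcript length, and library totals ran between 796921 and 2341410 reads, so that 1 read was worth 0.427 to 1.25 FPM. Summed over the 50 libraries there were 8966 reads on Mxd3, 2936 on Max, 1920 on Mlx, 1801 on Mycn, 836 on Mycl, 512 on Mnt, 170 on Myc, 79 on Mga, 53 on Mxd4 and 4 on Mxi1. The filter, 5 FPM or more in 2 or more of the replicate means, left 7 members for testing and removed Mxd4, Mxi1 and Mga. All 14 pluripotency markers on the list were detected, with a summed level of 2960 ± 81.7 FPM in Triple_KO and 3360 ± 73.1 FPM in WT at 0 h (SD, n = 4 libraries each), although Nanog, a core factor of this state, was at 2.20 FPM in WT. At 0 h the 3′ reads of the targeted genes remained in the cells that lack them. Ythdf1 was at 56.9 FPM in Ythdf1_KO and 57.2 FPM in WT, and Ythdf3 at 23.8 FPM in Ythdf3_KO and 23.2 FPM in WT. Ythdf2 was lower in Ythdf2_KO without overlap (28.9 to 38.9 FPM, against 40.5 to 58.6 FPM in WT), but was at 71.8 to 97.3 FPM in Triple_KO. Which part of each gene was deleted is not in the labels, so reads at the 3′ end do not settle whether the labels hold.

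In untreated cells the clearest change was in Mycn, the Myc family gene that is highly active in early embryos. Mycn had 63.8, 50.9, 48.1 and 68.4 FPM in the Triple_KO libraries, against 24.1, 32.1, 37.1 and 34.3 FPM in the WT libraries. Every Triple_KO library lay above every WT library. The group means were 57.8 ± 9.84 FPM in Triple_KO and 31.9 ± 5.6 FPM in WT (SD, n = 4 libraries each, from 2 replicates). On the log2(FPM + 1) scale Mycn was higher in Triple_KO by 0.84 ± 0.14 (SE, limma, adjusted p = 1.57e-07), by 1.01 in replicate A and 0.67 in replicate B. It was the 1 member called of 7 tested, beside 21.9% of all genes called in this comparison, and the median over all genes was 0.07. This call was lost (adjusted p = 0.23) when the spread was estimated from all 3 times together.

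Mycn was also above WT on average in each single knockout, by less. The 4 Ythdf1_KO libraries had 47.0, 53.5, 33.6 and 38.8 FPM of Mycn, the Ythdf2_KO libraries 36.1, 35.9, 49.0 and 35.7 FPM, and the Ythdf3_KO libraries 43.0, 49.2, 46.3 and 38.7 FPM. Ordered by mean, Triple_KO was followed by Ythdf3_KO (44.3 FPM), Ythdf1_KO (43.2 FPM), Ythdf2_KO (39.2 FPM) and WT, and each neighbouring pair in this order overlapped. Against the same WT libraries, Mycn was higher in Ythdf3_KO by 0.47 ± 0.14 (limma, adjusted p = 0.0233), and all of the Ythdf3_KO libraries lay above all of the WT libraries. The differences in Ythdf1_KO (0.42 ± 0.14, limma, adjusted p = 0.0708) and Ythdf2_KO (0.29 ± 0.14, limma, adjusted p = 0.207) did not pass. The Ythdf3_KO call was lost without Ythdf3_KO replicate A, Ythdf3_KO replicate B or WT replicate A (adjusted p = 0.25, 0.0927 and 0.387), with no filter on low values (adjusted p = 0.234) and with all times in the fit (adjusted p = 0.999).

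Mycl, the third activator of the family, passed at 0 h in Ythdf2_KO and in no other knockout. It had 16.2, 15.98, 16.8 and 26.1 FPM in Ythdf1_KO, 20.3, 20.4, 17.5 and 18.4 FPM in Ythdf2_KO, and 14.5, 15.5, 14.7 and 19.4 FPM in Ythdf3_KO. The Triple_KO libraries had 7.36, 19.4, 15.1 and 17.3 FPM and the WT libraries 9.25, 7.61, 13.0 and 19.6 FPM. The WT libraries were spread widely and overlapped every knockout group. Mycl was higher in Ythdf2_KO by 0.67 ± 0.22 (limma, adjusted p = 0.038), a call that was lost without Ythdf2_KO replicate A, Ythdf2_KO replicate B or WT replicate A (adjusted p = 0.31, 0.127 and 0.674), with a value of 0.25 without WT replicate A. It was also lost by edgeR (adjusted p = 0.0758), with no filter on low values (adjusted p = 0.26) and with all times in the fit (adjusted p = 0.801). In Ythdf1_KO the difference was 0.62 ± 0.22 (limma, adjusted p = 0.116), in Ythdf3_KO it was 0.42 (adjusted p = 0.341) and in Triple_KO it was 0.25 ± 0.22 (adjusted p = 0.472).

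In the single knockouts, then, few members passed at 0 h. In Ythdf1_KO 0 of 7 passed, beside 2.62% of all genes, with 3 members at an unadjusted p under 0.05 and 0 called by edgeR on the recovered reads. In Ythdf2_KO 1 of 7 passed (Mycl), beside 8.2% of all genes, and in Ythdf3_KO 1 of 7 (Mycn), beside 4.46%. All 4 comparisons use the same WT libraries.

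Max, the shared partner, did not pass at 0 h in any knockout. Its libraries had 51.5, 50.9, 44.8 and 65.5 FPM in Triple_KO, against 63.5, 53.2, 56.5 and 60.8 FPM in WT, and the groups overlapped. The difference was -0.15 ± 0.12 on the log2 scale (limma, adjusted p = 0.437). The group means of the single knockouts lay between 52.0 and 56.1 FPM. Mlx averaged 27.1 ± 4.08 FPM in Triple_KO and 32.1 ± 5.37 FPM in WT, a difference of -0.24 ± 0.16 that did not pass (limma, adjusted p = 0.322). Mnt, a broadly expressed Max partner that represses, averaged 12.2 ± 3.49 FPM in Triple_KO and 10.5 ± 1.15 FPM in WT, and the groups overlapped.

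Myc itself was hardly read in these 3′ libraries. At 0 h it had 5, 6, 5 and 9 reads in the Triple_KO libraries, 16, 9, 11 and 8 in Ythdf1_KO, 0, 2, 7 and 10 in Ythdf2_KO, 12, 6, 0 and 10 in Ythdf3_KO, and 5, 6, 5 and 10 in WT. Libraries of the same replicate differed as much as genotypes did. From the summed reads the ratio to WT was 0.775 in Triple_KO (exact 95% interval 0.429 to 1.40), 1.49 in Ythdf1_KO (0.900 to 2.53), 0.541 in Ythdf2_KO (0.283 to 1.02) and 0.857 in Ythdf3_KO (0.484 to 1.52). Each interval includes 1, and such intervals cover counting error only.

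Of the members under the filter, Mxd4, a repressor linked to cells leaving the cycle, had 18 reads in the Triple_KO libraries at 0 h and 2 reads in the WT libraries, 2.47 ± 1.56 FPM and 0.35 ± 0.699 FPM (SD, n = 4 libraries each). The ratio of the summed reads was 7.25 with an exact 95% interval of 1.74 to 64.4. With no filter on low values limma called Mxd4 higher by 1.35 (adjusted p = 0.00695), with the share of all genes called not set beside it. The libraries overlapped at 0 h, at 0.554 to 4.29 FPM in Triple_KO and 0 to 1.4 FPM in WT. Mxd4 had 2 reads in Triple_KO and 3 in WT at 4 h, and 6 and 4 at 8 h. The deposited counts do not state whether strand was used, and the longer GENCODE transcript of Mxd4 is overlapped by an antisense gene, Gm42846, over 1001 bases, which lie beyond the end of the RefSeq row that was counted. Mga stayed at or under 2.06 FPM in every group. Mxi1, listed in 3 rows with identical values, had 3 reads in 1 Triple_KO library and 1 read in 1 Ythdf2_KO library, both at 8 h, and none in the other 48 libraries.

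**Figure D1:**
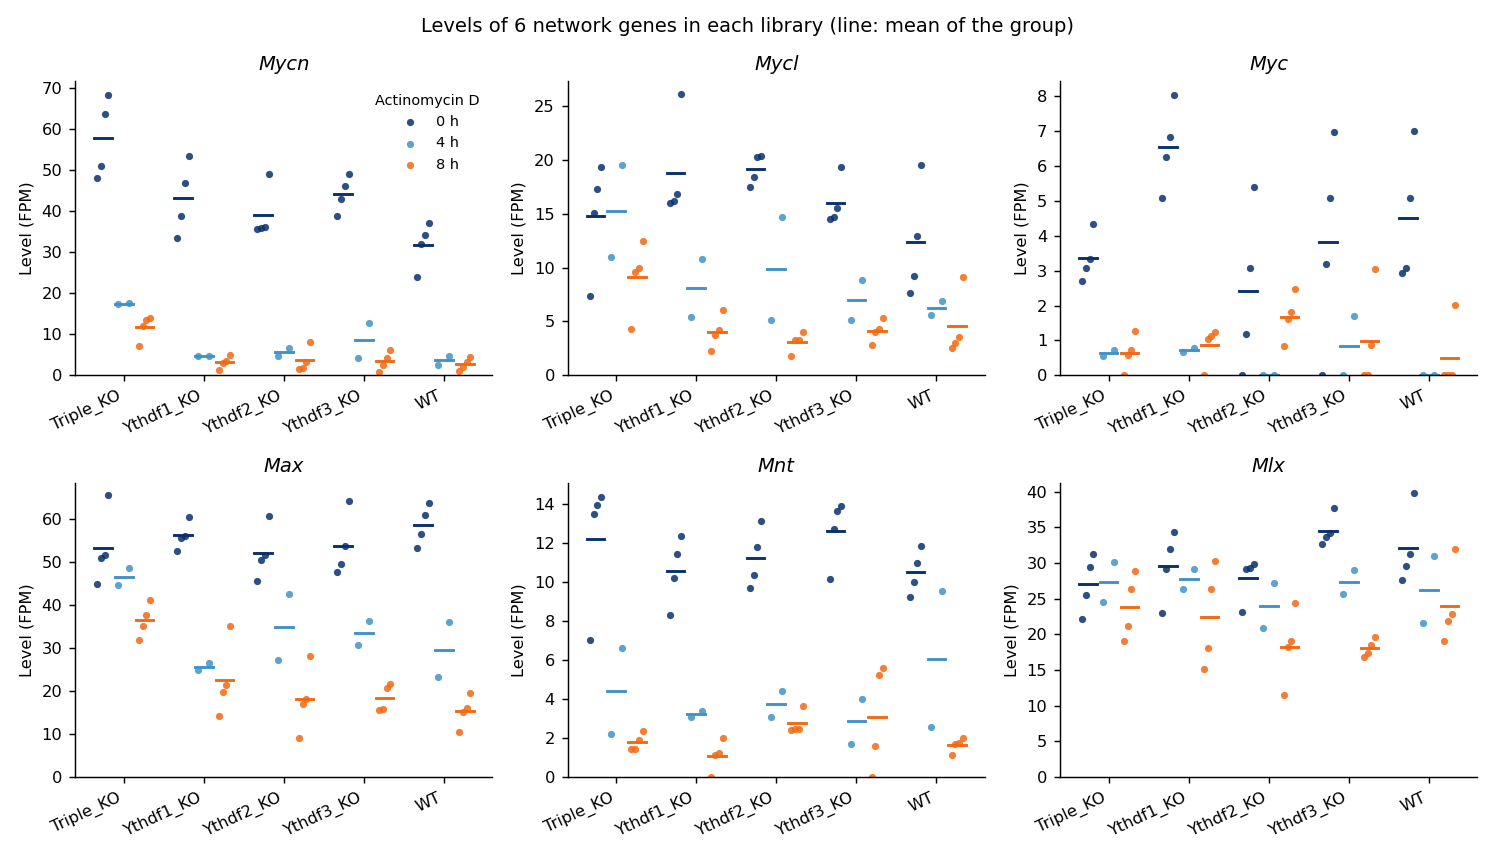
Levels of tested network genes in FPM, on a vertical axis of its own for each gene shown, with the 5 genotypes (Triple_KO left, WT right) at 0, 4 and 8 h. Points are libraries and bars are group means; Mycn is highest in Triple_KO at each time, and Max overlaps between genotypes at 0 h and is highest in Triple_KO at 8 h.

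Several marker lists differed between Triple_KO and WT in the same libraries. Summed trophectoderm markers (1 of 8 at 0 in WT) were at 293 to 324 FPM in Triple_KO and 114 to 137 FPM in WT at 0 h. Fibroblast markers (2 of 15 at 0 in WT) were at 369 to 445 FPM in Triple_KO and 271 to 307 FPM in WT. Endoderm markers (0 of 9 at 0) were at 38.5 to 50.8 FPM in Triple_KO and 64.2 to 79.6 FPM in WT. Single knockouts differed from WT too. In the order Ythdf1_KO, Ythdf2_KO, Ythdf3_KO, Triple_KO and WT, mean sums at 0 h were 193, 191, 84.8, 311 and 129 FPM for trophectoderm markers. They were 375, 281, 309, 395 and 290 FPM for fibroblast markers, and 46.6, 45.7, 39.7, 45.2 and 73.8 FPM for endoderm markers. Each sum rests mainly on 2 genes, in WT Krt8 (75.4 FPM) and Krt18 (34.4 FPM), Fn1 (164 FPM) and Acta2 (73.3 FPM), and Lama1 (47 FPM) and Col4a1 (19.4 FPM). The other trophectoderm markers in WT were Tfap2c (7.22 FPM), Gata3 (6.93 FPM), Eomes (3.78 FPM), Cdx2 (1.02 FPM), Hand1 (0.449 FPM) and Elf5 (0 FPM). In bulk RNA fewer cells of a type and less RNA per cell cannot be told apart, and the part of these markers in the Mycn and Max results was not tested.

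After 8 h of actinomycin D, Mycn was among the most depleted transcripts in WT cells on the log2(FPM + 1) scale. Mycn had 1.14, 2.01, 3.38 and 4.40 FPM in the WT libraries at 8 h, against the 24.1 to 37.1 FPM at 0 h, and 8.25 ± 3.74% of the starting FPM was left (SD, n = 2 replicates). The log2 change was -3.21 ± 0.38 (limma, adjusted p = 1.03e-10), and 0.5% of all genes tested had a lower value. At 4 h WT had 2.58 and 4.79 FPM, 11.3 ± 2.99% of the start, so most of the loss had occurred by then. Myc was low throughout, with 2 reads over the 4 WT libraries at 8 h and 26 at 0 h, a ratio of 0.109 (exact 95% interval 0.0125 to 0.435), and both WT libraries at 4 h had 0 reads, under the floor of 3 counts per library. Mycl had 9.13, 3.01, 2.53 and 3.52 FPM in WT at 8 h, with 72.0% left in replicate A and 18.6% in replicate B, so the replicates were far apart. In WT 11.4% of all genes had a lower value than Myc and 29.8% a lower value than Mycl. Myc averaged 4.52 FPM in WT at 0 h, so the added 1 FPM limits how low its log2 value can go. Its rank therefore does not show that less Myc than Mycn was lost.

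In all, 6 of the 7 tested members were called in WT between 8 h and 0 h, beside 56.9% of all genes (55.2% lower), each lower. FPM is a share of the library, and the median gene was itself at -0.81 in WT. Under TMM scaling that median was -0.22 and under scaling to the median gene -0.01, so values are best read against it. Max was at -1.89 ± 0.21 (limma, adjusted p = 2.34e-11), Mnt at -2.13 ± 0.47 (adjusted p = 1.24e-04), Myc at -2.01 ± 0.57 (adjusted p = 0.00237) and Mycl at -1.32 ± 0.40 (adjusted p = 0.00388). The Mycl call was lost under TMM (-0.75, adjusted p = 0.139) and median scaling (-0.52, adjusted p = 0.314) and without WT replicate B (-0.56, adjusted p = 0.43). The Myc call was lost under median scaling (-1.20, adjusted p = 0.0891) and without WT replicate B (-1.52, adjusted p = 0.133). Mxd3, the Mxd protein of dividing cells, was lower, at -0.24 ± 0.11 (limma, adjusted p = 0.0451) on the FPM scale and higher by 0.42 under TMM and 0.56 under median scaling, both called. Mlx had no call (-0.42 ± 0.23, limma, adjusted p = 0.114), and its sign also turned under both scalings (0.23 and 0.38). Mycn, Mnt, Myc, Max and Mycl thus lay below the median gene in WT, and Mxd3 and Mlx above it.

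Most of the tested members were also called lower at 8 h in the single knockouts. In Ythdf1_KO 5 of 7 were called, beside 55.9% of all genes (54.5% lower), with Mycn at -3.46, Mnt at -2.56, Myc at -2.08, Mycl at -1.99 and Max at -1.34, of which Myc was lost under median scaling (adjusted p = 0.0632) and without Ythdf1_KO replicate B (adjusted p = 0.0781). In Ythdf2_KO 6 of 7 were called, beside 63.2% of all genes (62.6% lower), with Mycn at -3.27, Mycl at -2.32, Mnt at -1.71 and Max at -1.56, of which Mnt was lost under TMM (-1.07, adjusted p = 0.0694) and median scaling (-0.80, adjusted p = 0.186). Its calls of Mxd3 (-0.57) and Mlx (-0.62) turned positive under TMM (0.21 and 0.13) and median scaling (0.35 and 0.29). In Ythdf3_KO 6 of 7 were called, beside 60.2% of all genes (59.6% lower), with Mycn at -3.50, Mnt at -2.07, Mycl at -1.75, Max at -1.495, Mlx at -0.90 and Mxd3 at -0.46, of which Mxd3 turned positive under TMM (0.24) and median scaling (0.38). The Ythdf3_KO call of Mlx was lost under TMM (-0.21, adjusted p = 0.496) and median scaling (-0.06, adjusted p = 0.862), and that of Mycl under median scaling (-0.91, adjusted p = 0.068). Myc had no call in Ythdf2_KO, where 8 reads at 8 h and 19 reads at 0 h gave a ratio of 0.710 (exact 95% interval 0.269 to 1.70), nor in Ythdf3_KO (-1.19, adjusted p = 0.0669).

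At 4 h the losses were already large for Mycn. In WT 3 of 7 members were called at 4 against 0 h, beside 30.9% of all genes, namely Mycn (-2.84), Myc and Max (-0.99). In Ythdf1_KO 5 of 7 were called, beside 27.5% of all genes, in Ythdf2_KO 4, beside 25.9%, and in Ythdf3_KO 4, beside 30.9%. In Triple_KO 2 of 7 were called, beside 10.9% of all genes, Mycn (-1.66) and Mnt (-1.37).

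In Triple_KO Mycn, Mnt and Myc passed at 8 h. There 3 of 7 were called lower than at 0 h, beside 29.2% of all genes (25.8% lower), and the median gene was at -0.39. Mycn was at -2.23 ± 0.38 (limma, adjusted p = 3.95e-06), with 1.8% of genes lower. Mnt was at -2.21 ± 0.47 (limma, adjusted p = 2.02e-04), with 15.4 ± 7.01% of its FPM left in Triple_KO and 15.7 ± 0.136% in WT. Myc was at -1.45 ± 0.57 (limma, adjusted p = 0.0479), a call that was lost under TMM (-1.19, adjusted p = 0.145), median scaling (-1.02, adjusted p = 0.194), a pseudocount of 0.5 FPM (adjusted p = 0.0819) and no filter on low values (adjusted p = 0.128), and without either Triple_KO replicate (adjusted p = 0.4 without A and 0.21 without B), as was that of Mnt without replicate A (adjusted p = 0.0723). Max did not pass (-0.53 ± 0.21, limma, adjusted p = 0.0536), nor did Mycl (-0.65, adjusted p = 0.227), Mlx (-0.18) or Mxd3 (0.04), and the Mlx value turned positive under both scalings. edgeR called Max (-0.56, adjusted p = 7.28e-04) and Mycl (-0.72, adjusted p = 0.0265) lower as well, 5 members in all, and Mxd3 was called higher under TMM (0.38, adjusted p = 0.00541) and median scaling (0.47, adjusted p = 3.41e-04).

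The share of reads that the table lists moved with these groups. It was between 43.3% and 44.3% of the library in every genotype at 0 h. At 8 h it was 41.1 ± 1.48% in Triple_KO (39.5 to 43.0%), 33.4% in Ythdf1_KO, 30.5% in Ythdf2_KO and 30.6% in Ythdf3_KO, with 33.2 ± 0.266% in WT. No added RNA standard is described, so loss of total mRNA was not measured here, and the part of this share in the results below was not tested.

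**Figure D2:**
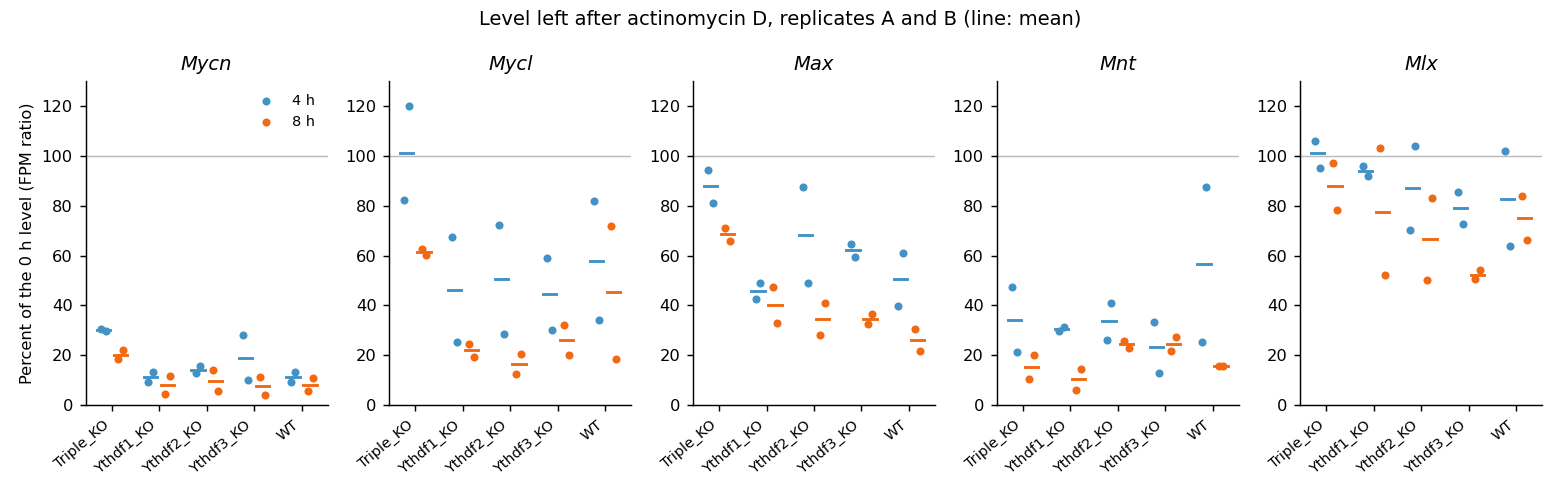
Percent of the 0 h FPM left at 4 and 8 h for tested network genes, by genotype, with points for replicates A and B and lines marking their means. For Max, 68.5% was left in Triple_KO and 26.2% in WT at 8 h.

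On the FPM scale, Max was the member called for a decay difference between Triple_KO and WT. At 8 h Max had 41.0, 31.8, 35.1 and 37.7 FPM in the Triple_KO libraries, 19.8, 35.1, 14.2 and 21.4 FPM in Ythdf1_KO, 18.1, 9.10, 28.2 and 17.1 FPM in Ythdf2_KO, 20.6, 15.7, 21.7 and 15.9 FPM in Ythdf3_KO, and 19.4, 16.1, 15.2 and 10.6 FPM in WT. All Triple_KO libraries lay above all WT, Ythdf2_KO and Ythdf3_KO libraries, and 1 Ythdf1_KO library reached into the Triple_KO range. At 4 h Triple_KO had 48.4 and 44.6 FPM, against 24.8 and 26.5 FPM in Ythdf1_KO, 42.4 and 27.2 FPM in Ythdf2_KO, 36.2 and 30.7 FPM in Ythdf3_KO, and 23.2 and 35.9 FPM in WT, again with Triple_KO apart from the next group. The percent of Max still present at 8 h was 68.5 ± 3.59 in Triple_KO, 40.1 ± 10.1 in Ythdf1_KO, 34.4 ± 9.05 in Ythdf2_KO, 34.5 ± 2.82 in Ythdf3_KO, with 26.2 ± 5.96 in WT (SD, n = 2 replicates each).

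The 8 h over 0 h log2 change of Max was higher in Triple_KO than in WT by 1.37 ± 0.30 (limma interaction term, adjusted p = 0.00148), by 1.17 in replicate A and 1.56 in replicate B. Max was the 1 of 7 members called, beside 7.24% of all genes, 95.7% of genes had a lower value, and the median over all genes was 0.37. The call did not hold under TMM (1.05, adjusted p = 0.0583) or median scaling (0.99, adjusted p = 0.0773), without Triple_KO replicate A (adjusted p = 0.0512), or without WT replicate B (adjusted p = 0.0549). At 4 h in place of 8 h the difference was 0.81 (adjusted p = 0.188). In the single knockouts the Max difference from WT was 0.55 ± 0.30 in Ythdf1_KO (limma, adjusted p = 0.991), 0.33 in Ythdf2_KO and 0.40 in Ythdf3_KO.

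Mycn remained higher in Triple_KO throughout the block. Its Triple_KO libraries had 17.6 and 17.3 FPM at 4 h, against 4.65 and 4.76 FPM in Ythdf1_KO, 4.63 and 6.62 FPM in Ythdf2_KO, 12.9 and 4.27 FPM in Ythdf3_KO, and 2.58 and 4.79 FPM in WT. At 8 h the Triple_KO libraries had 13.9, 7.22, 12.1 and 13.5 FPM, with 3.13, 1.26, 5.07 and 3.38 FPM in Ythdf1_KO, 8.21, 1.82, 3.31 and 1.62 FPM in Ythdf2_KO, 6.11, 4.35, 2.41 and 0.934 FPM in Ythdf3_KO, and 1.14, 2.01, 3.38 and 4.40 FPM in WT. Triple_KO lay wholly above WT at both times, and 1 Ythdf2_KO library reached into its range at 8 h. The percent left at 8 h was 20.2 ± 2.55 in Triple_KO, 8.01 ± 5.16 in Ythdf1_KO, 9.87 ± 5.72 in Ythdf2_KO and 7.65 ± 5.25 in Ythdf3_KO, with 8.25 ± 3.74 in WT (SD, n = 2 replicates each). The decay difference between Triple_KO and WT was 0.98 ± 0.54 and did not pass (limma, adjusted p = 0.309).

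Compared directly at 8 h, Mycn was higher in Triple_KO than in WT by 1.82 ± 0.38 (limma, adjusted p = 1.09e-04) and Max by 1.22 ± 0.21 (limma, adjusted p = 4.7e-06). These were 2 of 7 members, beside 30.6% of all genes called and a median of 0.45. Both calls held under each alternative that was run, with the Mycn value between 1.11 and 2.29 and the Max value between 0.76 and 1.44. At 4 h Mycn (2.02 ± 0.38, adjusted p = 2.76e-05), Mycl (1.12 ± 0.40, adjusted p = 0.0289) and Max (0.67 ± 0.21, adjusted p = 0.0145) were called higher in Triple_KO by limma, beside 27.2% of all genes and a median of 0.32. Mycn had been called higher in Triple_KO at 0 h already, and Max had not.

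**Figure D3:**
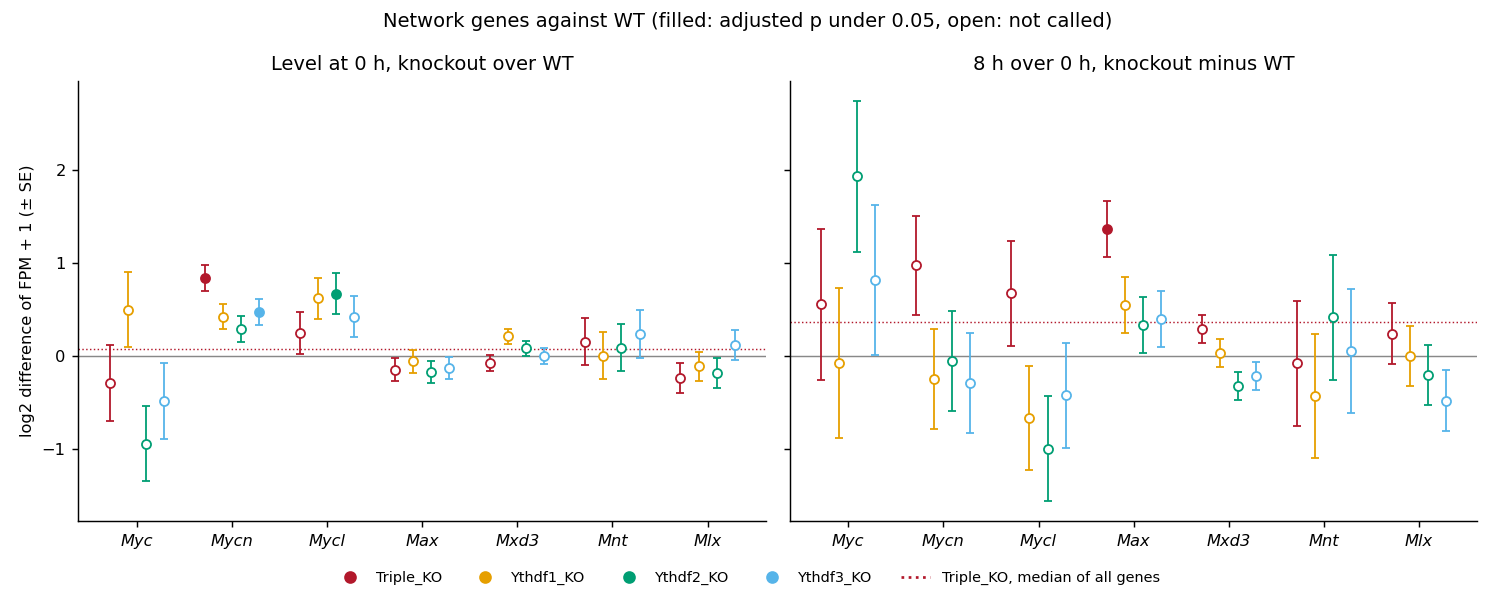
Left, log2 difference in level at 0 h of each knockout from WT; right, knockout minus WT difference in the log2 change between 8 h and 0 h, each with its SE, for the 7 tested genes. Filled points are called at an adjusted p under 0.05, and the dotted line is the median over all genes in Triple_KO (0.07 left, 0.37 right); in the right panel Max in Triple_KO is the filled point.

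Against the 3 single knockouts averaged, the decay of 3 members differed in Triple_KO, beside 17% of all genes and a median of 0.42. Mycl was higher by 1.37 ± 0.46 (limma, adjusted p = 0.0297), Max by 0.94 ± 0.25 (adjusted p = 0.00417) and Mxd3 by 0.46 ± 0.12 (adjusted p = 0.00504). Mycl had 12.5, 4.33, 9.57 and 10.0 FPM in Triple_KO at 8 h, and 61.5 ± 1.74% was left, with 22.0 ± 3.69% in Ythdf1_KO, 16.5 ± 5.65% in Ythdf2_KO and 26.2 ± 8.70% in Ythdf3_KO. Mycn was at 1.17 ± 0.44 and did not pass (limma, adjusted p = 0.053), though edgeR called it (1.27, adjusted p = 4.68e-04). None of the calls held under TMM or median scaling, under which 0 of 7 members passed and 2 had an unadjusted p under 0.05, and none held without Triple_KO replicate A or without replicate B. Without a filter on low values the Mycl call was also lost (adjusted p = 0.108).

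In the single knockouts no tested member passed for a decay difference from WT. In Ythdf1_KO 0 of 7 were called, beside 0.0441% of all genes, with 0 at an unadjusted p under 0.05. In Ythdf2_KO 0 of 7 were called, beside 0.176% of all genes, with 2 at an unadjusted p under 0.05, Myc (1.93 ± 0.81, limma, adjusted p = 0.588) and Mxd3 (-0.33). In Ythdf3_KO 0 of 7 were called, beside 0.33% of all genes, with 0 at an unadjusted p under 0.05. edgeR called 0 members in each of the 3. With 2 replicates the interval of such a difference is wide, as the SE of 0.30 for Max and 0.54 for Mycn shows, so that these values do not show the genotypes to decay alike.

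Mxd3 has to be read together with its neighbour. The 3′ ends of Mxd3 and Prelid1, a mitochondrial lipid carrier gene on the opposite strand, overlap by 105 bases in GENCODE, and the sources used here do not say whether the counting used strand. In the 50 libraries the Mxd3 level was between 0.502 and 0.702 of the Prelid1 level, with a median of 0.571. Mxd3 averaged 119 ± 6.18 FPM in Triple_KO and 126 ± 12.4 FPM in WT at 0 h, and 123 ± 10.96 FPM in Triple_KO and 106 ± 14.4 FPM in WT at 8 h. Prelid1 differed in decay between Triple_KO and the single knockouts by 0.41 ± 0.10 (limma, adjusted p = 0.0011), close to the Mxd3 value. Both values also lay near the median over all genes in that comparison (0.42), with 48.9% of genes below Prelid1 and 54.1% below Mxd3. In this comparison, values so near the median cannot tell this pair from other genes. Over the 50 libraries the Pearson r of the 2 levels was 0.931, with no other pair compared. Whether shared reads have a part in it was not tested. The reads of these 2 genes cannot be told apart without strand, so the Mxd3 values are uncertain. Mlx overlaps Psmc3ip on the opposite strand by 385 bases, and the same limit holds for it.

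**Figure D4:**
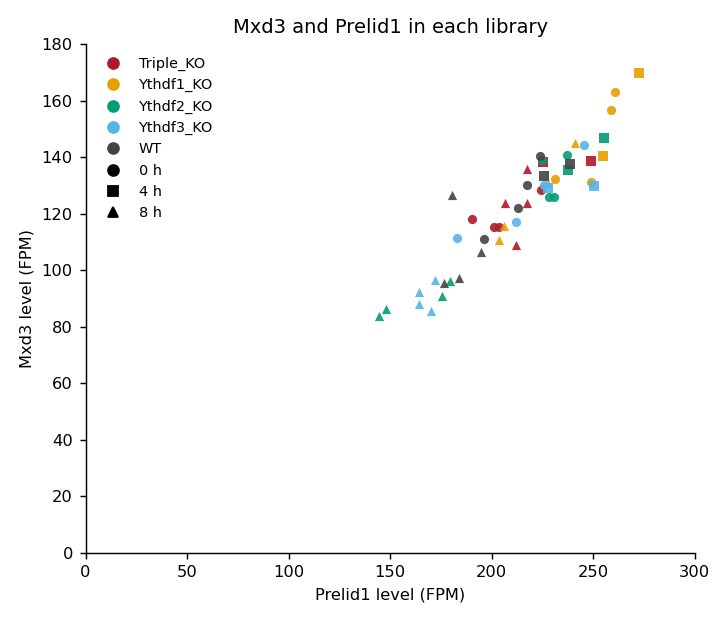
Mxd3 level against Prelid1 level, both in FPM from 0, in each of the 50 libraries, coloured by genotype and shaped by time. The ratio of the 2 levels lies between 0.502 and 0.702, and both levels are low together in Ythdf2_KO and Ythdf3_KO at 8 h.

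Mlx and Mnt gave no decay difference between genotypes that passed the test. Mlx had 87.8 ± 13.5% left at 8 h in Triple_KO, 77.6% in Ythdf1_KO, 66.5% in Ythdf2_KO and 52.3 ± 2.68% in Ythdf3_KO, with 75.1 ± 12.3% in WT (SD, n = 2 replicates). Mnt had 1.47, 1.44, 1.91 and 2.35 FPM in Triple_KO at 8 h, against 1.14, 2.01, 1.69 and 1.76 FPM in WT, which is 1 to 4 reads per library, and the groups overlapped. Its decay difference from WT in Triple_KO was -0.08 ± 0.67. Myc had 4 reads in Triple_KO at 8 h and 25 at 0 h, a ratio of 0.196 (exact 95% interval 0.0495 to 0.567), which overlaps the WT interval.

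Genes that Myc and Max are known to activate did not move one way in Triple_KO at 0 h, where Mycn was higher. Of 49 tested genes of 50 on the list, 10 were higher and 11 lower, beside 21.9% of all genes called (1241 higher and 665 lower of 8697), with a median of 0.00 beside 0.07 over all genes. Apex1, a DNA repair endonuclease, was higher by 0.70 ± 0.07 and Polr1b, an RNA polymerase I subunit, by 0.61 ± 0.16 (limma, adjusted p = 1.36e-18 and 0.00212). Ncl, a nucleolar protein of ribosome assembly, was lower, at -0.75 ± 0.17, and so was Ldha, lactate dehydrogenase A, at -0.57 ± 0.05 (limma, adjusted p = 1.62e-04 and 9.3e-21). The split was 8 higher and 13 lower under TMM and 8 and 15 under median scaling. In the single knockouts 2 of 49 were higher and 0 lower in Ythdf1_KO (beside 2.62% of all genes called), 7 higher and 2 lower in Ythdf2_KO (beside 8.2%), and 8 higher and 0 lower in Ythdf3_KO (beside 4.46%), where Ldha (0.38) and Shmt1 (0.37), a folate enzyme, led.

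The smaller lists gave calls in both directions in Triple_KO at 0 h. On the FPM scale they are to be read against the 21.9% of all genes called. Of the other network genes 1 of 6 tested was called, Zbtb17, the Miz-1 factor through which Myc represses, higher by 0.86 ± 0.21 (limma, adjusted p = 7.38e-04). Of the PRC1.6 partners of Mga 3 of 10 were lower, Rnf2, the E3 ligase of the complex, at -0.46, Wdr5 at -0.38 and Cbx1 at -0.24. Of the 17 cofactors tested, 2 were higher, among them Sin3b (0.75), a corepressor recruited by Mxd proteins, and 2 were lower (Wdr5 and Hdac2, -0.29). Cofactors gave 2 higher and 4 lower under both scalings. Among genes of Myc protein turnover Stub1, a ubiquitin ligase, was higher by 0.38 and Usp7, a deubiquitinase, lower, at -0.24, of 13 tested. Of 5 tested targets of Mlx and the Mondo factors, Txnip, an inhibitor of glucose uptake, was lower, at -1.04 ± 0.13 (limma, adjusted p = 6.6e-12), Hk2 was lower, at -0.36, and Arrdc4, an arrestin of the Txnip family, was higher by 0.71.

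During the block in WT, 33 of the 49 Myc targets were lower and 2 higher at 8 h on the FPM scale, beside 55.2% of all genes called lower, with a median of -0.45 beside -0.81 over all genes. This split depends on the scaling, since TMM gave 21 higher and 13 lower and median scaling 24 higher and 12 lower. The members that led, Rrs1 (-3.01), Ppan (-2.77) and Wdr43 (-2.34), which serve ribosome assembly, and Cdc25a (-2.24), a cell-cycle phosphatase, lay far below the median gene. The same 55.2% stands behind the FPM-scale counts of the other lists. It does not apply to counts under TMM or median scaling, whose share of all genes called was not set beside them. Of the PRC1.6 partners 9 of 10 were lower, with a median of -1.41 and with Ring1 (-2.40), E2f6 (-1.99) and Pcgf6 (-1.62) in front, and 5 under TMM and 4 under median scaling were lower, each with 1 higher. Turnover genes were lower in 12 of 13, led by Fbxw7 (-2.63), the ubiquitin ligase subunit that recognises Myc, and Aurka (-2.23), while 6 were lower under TMM, and 5 were lower and 2 higher under median scaling. Cofactors were lower in 15 of 17, led by Sin3a (-2.17) and Kat5 (-2.12), but each scaling gave 5 lower and 3 higher. Other network genes were lower in 4 of 6, led by Usf1 (-1.999) and Tfap4 (-1.55), both E-box binders, and in 1 under each scaling. Targets of Mlx were lower in 4 of 5, led by Txnip (-2.93) and Arrdc3 (-2.52), and in 3 under each scaling, with 1 higher under median scaling.

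In Triple_KO 13 of the 49 Myc targets decayed less than in WT on the FPM scale and 0 more, beside 7.24% of all genes called (655 higher and 2 lower of 9078), with a median of 0.35 beside 0.37 over all genes. Rrs1 was higher by 2.07 ± 0.37, Polr1b by 1.30 ± 0.38, Apex1 by 1.24 ± 0.15 and Cdc25a by 1.04 ± 0.33 (limma, adjusted p = 5.27e-05, 0.0219, 2.2e-09 and 0.0388). Under TMM scaling 2 were called higher and 1 lower, and under median scaling 2 and 2. Of the PRC1.6 partners Rybp (0.90) and Wdr5 (0.49) were called of 10, and Wdr5 was also the 1 called of 17 cofactors, and neither scaling called any. No gene of the other network, turnover or Mlx target lists was called in this comparison. Against the single knockouts 29 of 49 targets were called higher, beside 17% of all genes called (1541 higher and 4 lower of 9078), with Rrs1 (1.41), Apex1 (1.33), Polr1b (1.01) and Wdr43 (1.01) in front, and under each scaling 1 was higher and 1 lower.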

How the data were processed

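Poly(A) 3′ end RNA-seq of 50 libraries was deposited as 1 table in FPM, which is RPM: the authors scaled the reads of each RefSeq transcript to the library total. The submitters' processing notes name mm10 as the build and Bowtie2 and CASAVA 1.8.2 as tools. The use of strand, the filter behind the table and the handling of reads with several matches are not given in the sources used here, and any of them can move the values of overlapping or related genes. Of 22338 rows, 21729 were named from RefSeq (GRCm38.p6) and 120 from GENCODE M21. The 489 rows without a name were kept under their transcript identifiers. Then 2169 repeated rows were dropped and distinct rows of 652 genes summed, giving 19455 genes, a total that includes the unnamed ones.

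The main test was limma 3.58 (R 4.3) on log2(FPM + 1), with duplicate libraries averaged to n = 2 replicates per group, keeping genes that reached 5 FPM in 2 or more replicate means. The filter left 8697 genes for 0 h (10 replicate means) and 9078 for the other comparisons (30 replicate means), and calls are at a Benjamini-Hochberg adjusted p under 0.05 over all of them. A fold on this scale understates the change of low genes. A decay difference is the interaction of genotype and time. Because all deposited values were whole multiples of 1 read (100% within 0.1 read), reads were recovered and edgeR 4.0 was run on these counts as an alternative. Ratios of summed reads have exact conditional binomial 95% intervals. Other pseudocounts, filters, scalings and designs, and each replicate left out, were also run, and the limma and edgeR steps were tested on simulated data.

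The members and lists were chosen with earlier results of these data known. Up to 4 genes per list and comparison are named, those called with the same sign in both replicates, by size of change. One gene of the cofactor list is not reported here by name. Reads differed between A and B of a group (chi-square per degree of freedom, median 1.41 over 40 pairs of libraries) about as much as between duplicates (1.46 over 20 pairs), and no libraries were merged as copies.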

Additional observations from a re-analysis of the deposited data

Results flagged for a closer look

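In 4 of 48 groups of 4 libraries examined, 1 library stood apart from the other 3 (Dixon's test, which flags about 1 in 20 groups by chance). Mycn was at 49.02 FPM in 1 Ythdf2_KO library at 0 h, with the others at 35.7, 35.9 and 36.1 FPM. Mycl was at 26.11 FPM in 1 Ythdf1_KO library at 0 h, with the others at 15.98, 16.2 and 16.8 FPM. Mnt was at 7.019 FPM in 1 Triple_KO library at 0 h, with the others at 13.5, 13.97 and 14.4 FPM. Mlx was at 23.2 FPM in 1 Ythdf2_KO library at 0 h, with the others at 29.2, 29.4 and 29.9 FPM.

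The change between 0 and 8 h passed for a difference between genotypes for 3 members on the FPM scale. The Max change was higher by 1.366 on the log2 scale in Triple_KO than in WT and by 0.938 than in the single knockouts, the Mycl change was higher by 1.369 than in the single knockouts, and the Mxd3 change by 0.459. Every one of these calls was lost under TMM scaling (adjusted p = 0.0583 and 0.339 for Max, 0.363 for Mycl and 0.927 for Mxd3, whose value was 0.09) and under median scaling. The listed share of reads at 8 h, 41.1% in Triple_KO and 33.2% in WT, moved with each of these, and its part was not tested.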

How the results depend on the processing

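Of the values of called members recomputed under the alternatives, 367 kept their direction and call, 65 kept only the direction and 11 turned. Between 8 and 0 h Mxd3 turned in WT (0.42 under TMM, 0.56 under median scaling, 0.11 at 4 h), in Ythdf2_KO (0.21, 0.35 and 0.085) and in Ythdf3_KO (0.24, 0.38 and 0.047), and Mlx in Ythdf2_KO (0.13 under TMM and 0.29 under median scaling). Number of members called: with no filter on low values 2 in Triple_KO and 0 in Ythdf2_KO and Ythdf3_KO at 0 h; under TMM 3 in Ythdf2_KO at 8 against 0 h; under TMM, median scaling and at 4 h 0 for both Triple_KO decay differences; under median scaling 4 in WT, Ythdf2_KO and Ythdf3_KO; by edgeR 0 in Ythdf2_KO at 0 h and 5 in Triple_KO at 8 against 0 h; with all times in the fit 0 in Triple_KO, Ythdf2_KO and Ythdf3_KO at 0 h; at 4 against 0 h 3 in WT and 2 in Triple_KO. The share of all genes called under each setting was not set beside these counts. A shift in the members therefore cannot be told apart from a shift in the whole table. The cause of these shifts was not tested.

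Leaving out 1 replicate at a time gave these ranges of members called. At 0 h it was 1 to 1 in Triple_KO, 0 to 2 in Ythdf1_KO, 0 to 1 in Ythdf2_KO and 0 to 2 in Ythdf3_KO. At 8 against 0 h it was 1 to 2 in Triple_KO, 4 to 7 in Ythdf1_KO, 5 to 6 in Ythdf2_KO, 6 to 6 in Ythdf3_KO and 3 to 5 in WT (3 without WT replicate B). For Triple_KO the decay difference ranged over 0 to 1 against WT and 0 to 4 against the single knockouts, and the level at 8 h over 2 to 3. With 1 replicate left in a group, that replicate is assumed to vary like the other groups. The share of all genes called in each such fit was not set beside these ranges, so they are not a result about the members alone.

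No pairing of the samples by the letters A and B was seen. A minus B deviations correlated between -0.023 and 0.038 over 30 pairs of genotypes, and between -0.011 and 0.03 over 15 pairs of times. Because A and B differed about as much as duplicates, library noise could hide a pairing, and this check cannot exclude it. With a replicate block all 35 called member values kept their call, with 1 member called for the Triple_KO decay difference against WT, 3 against the single knockouts and 2 at 8 h. Depth limits Myc, Mnt, Mga, Mxd4 and Mxi1 most, since 1 read is worth up to 1.25 FPM.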

Other observations

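The genes most like Mycn over the 15 group means (Pearson r of log2(FPM + 1), among 6072 genes with at least 10 FPM in WT at 0 h) were Ppcs (0.991), Klf2 (0.990), Ngrn (0.983), Tmem115 (0.983) and Rnf8 (0.982). The means share libraries within a time and genotype, and most of their variation is that between 0 h and the later times. Klf2, a pluripotency factor, was higher in Triple_KO than in WT at 0 h by 0.34 ± 0.06 (limma, adjusted p = 4.56e-07), beside 21.9% of all genes called. Its decay difference was 0.81 ± 0.23 (limma, adjusted p = 0.0176), beside 7.24% of all genes called and a median of 0.37. Both Klf2 values are on the FPM scale, and TMM and median scaling were not set beside them. For Myc, which rests on 170 reads, the closest genes were Bicral (0.912), Tor4a (0.906), Dusp6 (0.889), Mroh8 (0.882) and Kat6a (0.882).

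Among the other lists at 8 h, compared directly between Triple_KO and WT, Myc targets were called higher in 26 and lower in 4 of 49 on the FPM scale, beside 30.6% of all genes called (2653 higher and 122 lower of 9078), with 12 and 15 under TMM scaling and 9 and 16 under median scaling. Ring1 of the PRC1.6 list was higher by 2.06. Against the single knockouts, Usf1, another E-box factor, decayed less in Triple_KO by 1.33 ± 0.35, Trim32, a ubiquitin ligase of Myc, by 1.89 ± 0.55, and Aurka, a kinase that protects Mycn protein from turnover, by 0.91 ± 0.23 (limma, adjusted p = 0.00447, 0.0106 and 0.00317), and under TMM and median scaling neither list had a call. E-boxes stood in the promoter windows of 14 of 43 Myc targets with a window, beside 8.093% of 27025 genes.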
